A study of Mus musculus with 2 samples.

Results

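Cycling monocyte-like cells are cells of the sorted bone marrow that held RNA of monocyte genes together with RNA of genes used in DNA replication and cell division. Cells with at least 1000 detected genes and at most 25% mitochondrial RNA were kept. In each of them unique molecular identifiers (UMIs, each standing for 1 captured transcript) were summed over 5 monocyte genes (*Csf1r*, *Ccr2*, *F13a1*, *Ms4a6c* and *Ly86*, the sum M), 8 granulocyte genes (*Camp*, *Ngp*, *Fcnb*, *Cebpe*, *Elane*, *Mpo*, *Prtn3* and *Ctsg*, the sum G) and 6 cell cycle genes (*Mki67*, *Top2a*, *Birc5*, *Ccna2*, *Stmn1* and *Pclaf*, the sum K). A cell was taken as a cycling monocyte-like cell if M was at least 3 and above G and K was at least 5. This held for 235 of the 1391 cells kept, 89 of 662 in the radiation control library and 146 of 729 in the SAA library. Since these values chose the cells, the genes of M, G and K describe the choice and support nothing.

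The mice of both groups were C57BL/6;Balb/c F1 hybrids that received 300 rads, and their age was not given in the labels. Radiation control (RC) mice received nothing further, whereas severe aplastic anemia (SAA) was induced with an additional 65000000 B6 splenocytes given intraperitoneally. Live 7-AAD- CD11b+ Ly6C+ Ly6G- bone marrow cells from 3 mice of a condition were combined and gave 1 library for droplet single-cell RNA-seq (Chromium 5′ v2). With 1 library per condition no difference between RC and SAA could be tested, and differences between mice, between libraries and between conditions cannot be told apart. The libraries held 798 and 825 barcodes with 4066589 and 5592265 UMIs, and 1 barcode occurred in both libraries, not among the cycling monocyte-like cells.

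Monocytes arise in the bone marrow from dividing progenitors and leave the cell cycle as they mature into Ly6C-high classical monocytes, which can become patrolling Ly6C-low monocytes or macrophages. Their development depends on the macrophage colony-stimulating factor receptor, encoded by *Csf1r*. The chemokine receptor CCR2 guides their release into blood, while CXCR4 retains immature cells in the marrow. Interferon-γ from T cells acts on monocytes and induces guanylate-binding proteins, MHC molecules and the chemokine CXCL9.

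Among the monocyte-like cells (M at least 3 and above G, whatever K) the cycling share was 26.2% (89 of 340, 21.6–31.2%) in RC and 53.3% (146 of 274, 47.2–59.3%) in SAA, with exact Clopper-Pearson 95% intervals. All intervals given here cover counting error only. K is a sum of raw UMIs and so depends on the UMIs per cell, which were more in the monocyte-like cells of SAA, and more RNA per cell and deeper sequencing cannot be told apart. Cycling cells held a median of 5682 UMIs in RC (lowest 2017, highest 13554) and 8639.5 in SAA (2009 to 33363), against 2908 and 4464 in non-cycling monocyte-like cells (K under 5). With every cell thinned to 2400 UMIs and the rule applied again, the shares were 28.5% (84 of 295, 23.4–34%) and 37.5% (90 of 240, 31.4–44%), and the intervals overlapped. With K of at least 10 they were 25.3% (86 of 340, 20.8–30.3%) and 40.5% (111 of 274, 34.6–46.6%) in raw counts, but 21% (62 of 295, 16.5–26.1%) and 19.2% (46 of 240, 14.4–24.7%) after thinning. The larger share in SAA was thus reduced by thinning, and it was not seen in thinned cells at the stricter threshold. Overlap of 2 separate intervals does not show that the shares are equal. Thinning also left out cells under 2400 UMIs, 1 cycling and 43 non-cycling in RC and 2 and 9 in SAA. This by itself raises the cycling share, more so in RC. Of granulocyte-like cells (G above M) 86.5% (275 of 318, 82.2–90.0383%) in RC and 85.5% (360 of 421, 81.8–88.7%) in SAA were cycling by the same K.

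**Figure D1:**
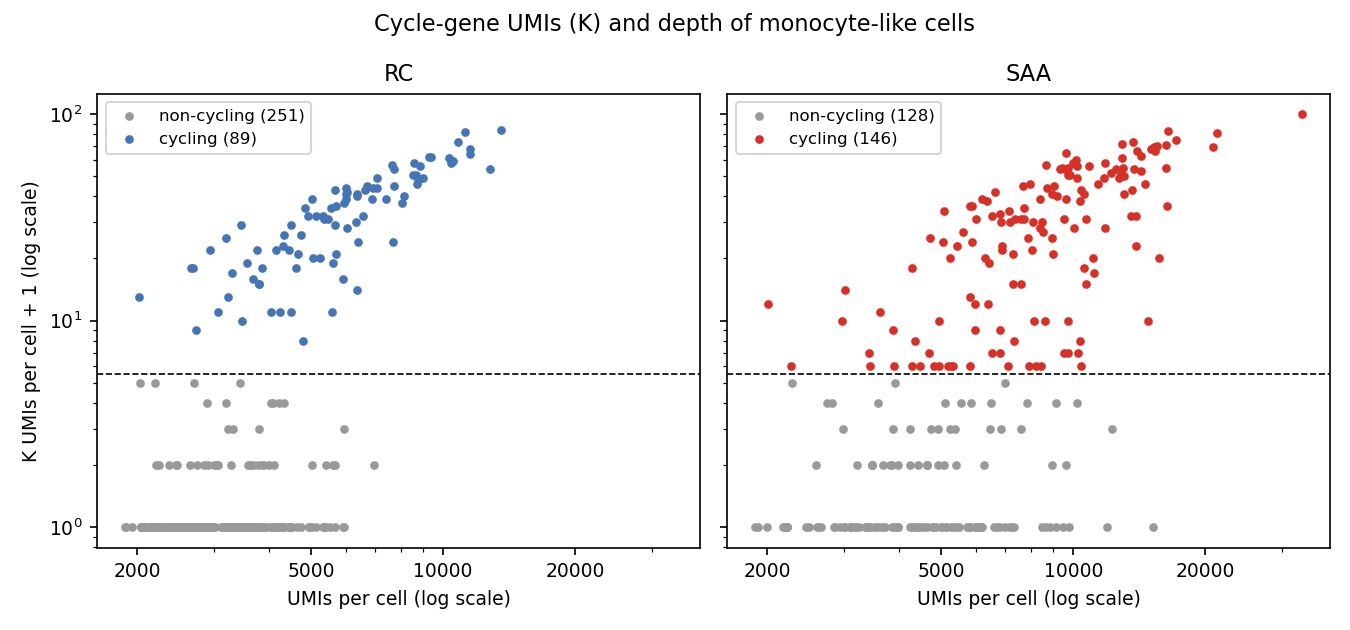
UMIs of the 6 cycle genes (K + 1, y axis, log scale) against all UMIs per cell (x axis, log scale) for each monocyte-like cell of RC and SAA, with a dashed line at the threshold. Cycling cells (coloured, 89 in RC and 146 in SAA) have median depths of 5682 and 8639.5 UMIs, above the 2908 and 4464 of non-cycling cells (grey).

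The libraries differed in how many cells lay near the threshold. In RC 10 cells had K of 3 or 4 and none had 5 or 6, and the lowest K of a cycling cell was 7. In SAA 13 cells had K of 3 or 4 and 23 had 5 or 6. Cells with K of 5 to 9 made up 3.37% (3 of 89, 0.701–9.54%) of the cycling cells of RC and 24% (35 of 146, 17.3–31.7%) of those of SAA. The cycling class thus has a gap below it in RC, while in SAA it runs on into the non-cycling cells.

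**Figure D2:**
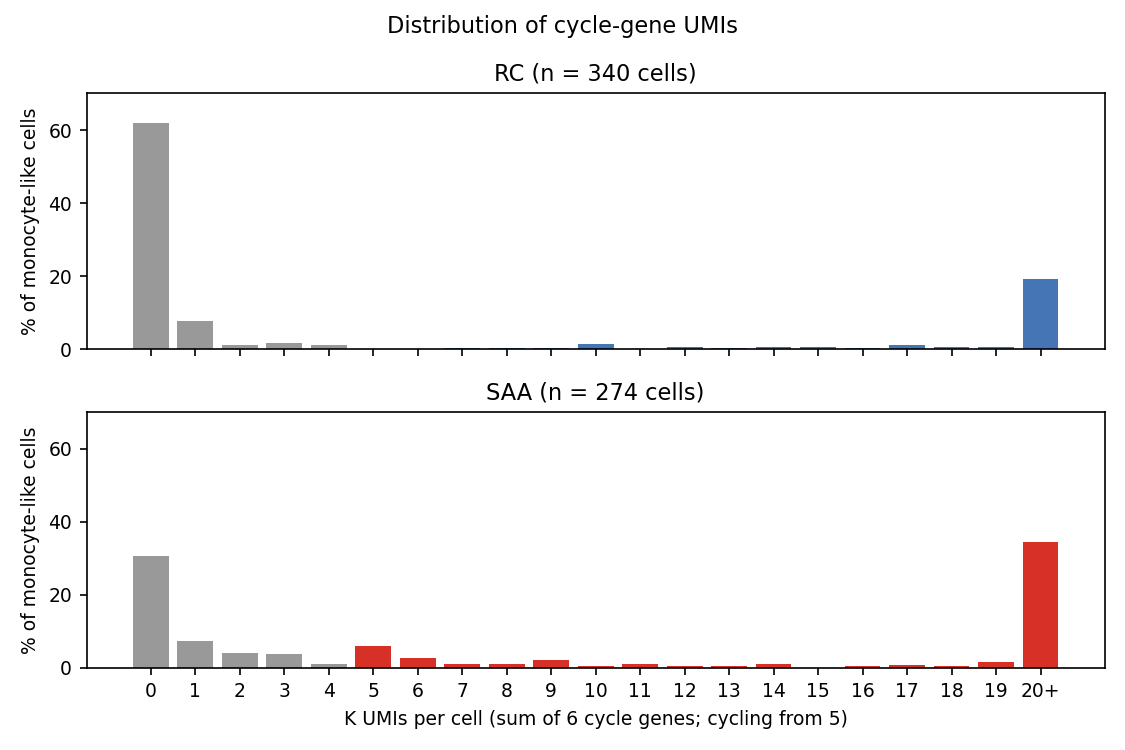
Share of monocyte-like cells (y axis, %) by number of cycle-gene UMIs (x axis, K, with 20 and above pooled) in RC (340 cells) and SAA (274 cells). No RC cell has K of 5 or 6, whereas 23 SAA cells do.

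The lineage part of the rule was met by a wide margin in most cells. The median M was 21 in RC and 26 in SAA, against a median G of 2 and 5. M exceeded G by 3 or less in 3 RC and 5 SAA cells, and G was 10 or more in 10 and 30. A further 2 and 3 cells with K of at least 5 fell just outside, with G between M and M plus 3. Genes that the rule did not use separated these cells from cycling granulocyte-like cells, whose median depth was 7329 UMIs in RC and 7489 in SAA. *Fn1*, encoding fibronectin, had a UMI in 95.5% of cycling monocyte-like and 2.545% of cycling granulocyte-like cells of RC, and in 67.1% and 2.78% in SAA. *Klf4*, a transcription factor of monocyte differentiation, had one in 65.2% and 1.82% in RC and in 63% and 5.56% in SAA. The sorted Ly6C antigen is encoded in part by *Ly6c2*, at 2722 UMIs per 1000000 UMIs of the class (CPM) in RC and 5192 in SAA cycling cells.

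Markers of other cell types were sparse, apart from some neutrophil genes, *Ighm* and *Bst2*. Of 15 T and NK cell markers 12 were at 0 in both libraries, and together they had 4 UMIs in RC and 3 in SAA, with *Cd3d* at 1 and 0. All 7 megakaryocyte markers and 9 of 10 mast cell, basophil and eosinophil markers were at 0, and erythroid markers had 6 and 14 UMIs. B cell markers had 72 and 250 UMIs, of which *Ighm* gave 67 and 245, in 36 of 89 and 100 of 146 cells. Of the dendritic cell markers *Bst2*, which interferon also induces, gave 28 of 55 and 638 of 644 UMIs, in 20 of 89 and 130 of 146 cells. In RC *Cd209a* gave 16 UMIs in 6 cells and *Cd7* gave 6 in 3 cells. The 15 neutrophil markers outside the rule summed to 3859 CPM in RC and 14833 in SAA, nearly all from *S100a8*, *S100a9*, *Chil3* and *Anxa1*. Their median per cell was 11.7 per 10000 UMIs in RC (highest 1020.1) and 49.7 in SAA (highest 1739.8), against 2738 and 2091 in cycling granulocyte-like cells. Scrublet called 1 RC and 11 SAA cells doublets, none of them monocyte-like, which are too few calls to show that doublets are absent.

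*Top2a*, a gene of the rule, encodes topoisomerase IIα and is expressed mainly in G2 and mitosis, a phase whose genes often carry a CCAAT box and a cell cycle genes homology region (CHR, searched as TTTGAA) near the start. Its window from 250 bases before to 50 after the start (RefSeq, GRCm38.p6, chr11:99024140-99024439, minus strand) held 6 CCAAT and 2 CHR matches, searched on both strands and set in capitals.
*Top2a*: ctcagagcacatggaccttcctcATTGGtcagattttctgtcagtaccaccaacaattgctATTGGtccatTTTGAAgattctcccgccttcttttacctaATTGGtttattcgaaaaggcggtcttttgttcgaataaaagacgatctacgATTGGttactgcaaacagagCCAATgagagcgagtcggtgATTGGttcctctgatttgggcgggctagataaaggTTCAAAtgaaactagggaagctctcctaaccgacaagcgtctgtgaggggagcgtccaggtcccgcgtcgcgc
Of 137 G2 and M phase genes with such a window, 67.9% held a CCAAT and 47.4% a CHR match, against 41.1% and 20.2% of all 27025 windows. Of other windows searched, that of *Mki67* held 3 CCAAT and 2 CHR matches. The window of *Birc5*, also a gene of the rule, held 0 of both, and that of *Cxcr4* held 0 CCAAT matches. A match describes the letters only.

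In the interferon-induced genes the interferon-stimulated response element (ISRE, searched as GAAA followed after 2 bases of any kind by GAAA, on both strands, in capitals) occurred 1 time in the windows of *Slfn5* (chr11:82951852-82952151, plus strand) and *Gbp2* (chr3:142620413-142620712, plus strand) and 3 times in that of *Isg15* (chr4:156200769-156201068, minus strand). The windows shown all hold a match and belong to genes whose differences are described next. These lie between cycling and non-cycling cells for *Slfn5* and *Isg15* and between SAA and RC for *Gbp2*.
*Slfn5*: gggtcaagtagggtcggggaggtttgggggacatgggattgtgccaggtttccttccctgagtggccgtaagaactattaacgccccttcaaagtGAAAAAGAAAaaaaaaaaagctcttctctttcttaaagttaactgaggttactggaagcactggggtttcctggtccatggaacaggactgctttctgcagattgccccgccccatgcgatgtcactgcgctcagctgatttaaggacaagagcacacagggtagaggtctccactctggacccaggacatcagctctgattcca
*Gbp2*: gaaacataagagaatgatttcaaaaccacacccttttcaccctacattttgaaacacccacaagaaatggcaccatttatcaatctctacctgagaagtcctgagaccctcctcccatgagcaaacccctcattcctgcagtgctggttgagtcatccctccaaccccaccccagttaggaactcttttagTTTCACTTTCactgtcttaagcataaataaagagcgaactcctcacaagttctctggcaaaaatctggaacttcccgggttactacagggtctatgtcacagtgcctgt
*Isg15*: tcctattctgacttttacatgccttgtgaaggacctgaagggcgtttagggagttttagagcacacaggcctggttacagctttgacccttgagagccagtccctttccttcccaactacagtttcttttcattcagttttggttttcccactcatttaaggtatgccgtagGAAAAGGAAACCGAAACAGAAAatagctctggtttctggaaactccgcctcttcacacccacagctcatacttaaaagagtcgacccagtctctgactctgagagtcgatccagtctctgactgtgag
An ISRE was found in 10 of 11 matched interferon-γ-inducible GTPases (90.9%) and 19 of 33 type I interferon genes (57.6%), against 3.99% of all windows. The letters of the cell cycle genes occurred in these windows too, with a CHR in 5 of the 11 GTPases (45.5%) and a CCAAT in 73.7% of 19 MHC class I genes. The interferon-γ-activated site (GAS, TTCNNNGAA) was found in 54.5% of the GTPases and 9.55% of all windows, and a GAS and an ISRE may overlap, since both hold GAA. The window of *Gbp2* shown here held 0 GAS matches. None of the 5 matched MHC class II genes held an ISRE and all 5 held a CCAAT box, which occurred 2 times in the window of *H2-Eb1* (chr17:34305617-34305916, plus strand).
*H2-Eb1*: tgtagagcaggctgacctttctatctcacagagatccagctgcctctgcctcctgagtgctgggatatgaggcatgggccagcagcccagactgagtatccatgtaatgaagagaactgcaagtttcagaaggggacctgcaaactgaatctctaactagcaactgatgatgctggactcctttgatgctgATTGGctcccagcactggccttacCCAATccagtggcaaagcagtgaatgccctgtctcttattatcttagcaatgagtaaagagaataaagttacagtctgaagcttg

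The cycling cells were then compared with the non-cycling monocyte-like cells of the same library. UMIs were summed per class, and ratios of CPM are given with exact conditional binomial 95% intervals. This contrast is the one that chose the cells, and what follows describes it without a test. Among genes with at least 50 UMIs in both classes together, 365 of 3864 were higher by 2-fold or more in RC (9.45%) and 292 lower (7.56%), and 433 (8.90%) and 191 (3.93%) of 4865 in SAA. Genes of the cell cycle lists and families gave 147 of the higher genes in RC and 187 in SAA. Outside them and the rule, 209 genes were higher and 290 lower of 3678 in RC, and 238 and 190 of 4626 in SAA. *Klf4*, *Cdkn1a*, *Hsp90aa1*, *Myb*, *Maf*, *Irf1*, *Calr*, *Hspa5*, *Ms4a3*, *Vcan* and *Myd88* are named outside the rule for named genes, after their values were seen.

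Cycling cells of both libraries held more RNA of the marrow retention receptor gene *Cxcr4*. It had 224 UMIs in cycling and 65 in non-cycling cells of RC (405.5 and 81.15 CPM), a ratio of 5.0 (3.775–6.69), and 196 and 13 in SAA (145 and 20.5 CPM), a ratio of 7.06 (4.035–13.5). After thinning, a *Cxcr4* UMI was found in 63.6% of cycling and 13.9% of non-cycling cells of RC (91% and 19.9% before), and in 31.9% and 5.04% in SAA (62.3% and 10.2% before). Its level was thus higher in cycling cells of both libraries, and between the cycling cells it was lower in SAA (0.357, 0.293–0.434). Cycling granulocyte-like cells held *Cxcr4* too (40.9% and 33.6% of thinned cells), but their ratio to non-cycling granulocyte-like cells was 1.12 (0.824–1.565) in RC and 1.19 (0.857–1.7) in SAA.

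Some inhibitors of the cell cycle were higher as well. *Cdkn2c*, encoding the CDK4 and CDK6 inhibitor p18, had 61 UMIs in cycling and 4 in non-cycling cells of RC, a ratio of 22.1 (8.21–83.7), and 53 and 1 in SAA, 24.8 (4.27–999). *Cdkn2d*, encoding the related inhibitor p19, had ratios of 2.96 (2.095–4.22) and 3.09 (2.05–4.82), and the retinoblastoma family gene *Rbl1* of 4.73 (2.93–7.91) and 3.72 (2.165–6.85). Of the list of p53 targets and CDK inhibitors to which they belong, 4 of 12 tested genes were past 2-fold higher in RC and 1 lower, and 3 of 14 higher in SAA and 0 lower. The shares over all genes tested were 9.45% higher and 7.56% lower in RC, and 8.9% and 3.93% in SAA. The list also holds *Gtse1*, a gene of the G2 and M phase list, so it is not free of cell cycle genes. *Cdkn1a*, the p53 target encoding p21, had ratios of 2.21 (1.27–3.91) and 0.7685 (0.558–1.07).

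*Tagln2* was among the highest genes too. This gene, encoding an actin-binding protein, stood at 628 CPM in cycling and 127 in non-cycling cells of RC (4.93, 3.94–6.21) and at 514 and 153 in SAA (3.37, 2.72–4.21). *Spn*, encoding the sialoglycoprotein CD43 and often counted among genes of patrolling monocytes, had ratios of 3.19 (2.17–4.76) and 4.05 (2.32–7.63). The 26 nonclassical monocyte genes to which it belongs went the other way as a whole, with sums of 0.642 (0.583–0.707) in RC and 0.813 (0.751–0.88) in SAA, 1 and 1 of 7 tested genes past 2-fold higher and 4 and 3 lower. Among all genes tested, 9.45% and 8.9% were higher and 7.56% and 3.93% lower. *Klf4* had ratios of 1.84 (1.44–2.355) and 3.75 (2.505–5.82). The chaperone gene *Hsp90aa1* had ratios of 3.92 (3.025–5.12) and 2.72 (2.26–3.3), whereas the whole list of 26 chaperones differed by only 1.12 (1.06–1.18) and 1.17 (1.14–1.21).

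Several of the highest genes outside the cell cycle lists still act in division or replication. *Aspm*, a gene of the mitotic spindle, had 69 UMIs against 1 in RC and 100 against 0 in SAA, where it was at least 15.6-fold higher against a floor of 3 UMIs per class. *Mtfr2* and *Arhgap19* were likewise at 0 and 0 UMIs in non-cycling SAA cells, at least 10.8-fold and 8.12-fold higher in cycling ones. *Rnaseh2b*, a subunit of ribonuclease H2, had ratios of 9.49 and 13.6, the histone co-chaperone gene *Dnajc9* of 5.26 and 7.2, and *Trim59*, *Ccdc34*, *Arhgap11a* and the non-coding *Lockd* of between 4.51 and 50.7 in RC and between 5.23 and 10.3 in SAA. The lists that set cell cycle genes apart are therefore not complete.

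The 30 myeloid progenitor genes summed to ratios below 1, 0.81 (0.759–0.864) in RC and 0.883 (0.856–0.911) in SAA. Of their 8 tested genes 0 in RC and 1 in SAA were past 2-fold higher, beside 9.45% and 8.9% of all genes, and none lower. Their median log2 ratios over tested genes lay above 0, at 0.03 and 0.12. *Prtn3*, encoding proteinase 3 of azurophil granules and a gene of G, which the rule limits, had ratios of 5.23 (3.75–7.42) in RC and 3.34 (2.7–4.165) in SAA. It was found in 28.4% of cycling and 11.5% of non-cycling thinned cells of RC and in 56.25% and 22.7% of those of SAA, against 49.6% and 78.15% of cycling granulocyte-like cells. *Myb*, a transcription factor of progenitors, had 16 UMIs against 2 in RC (11.6, 2.73–104) and 32 against 0 in SAA (at least 5.0-fold higher). *S100a8* and *S100a9*, encoding the subunits of calprotectin, had ratios of 5.17 (4.52–5.92) and 8.95 (7.07–11.4) in RC but 1.285 (1.24–1.33) and 1.66 (1.54–1.78) in SAA. In RC 1 cycling cell held 294 of 998 *S100a8* UMIs and 1 held 268 of 506 *S100a9* UMIs, and without these the ratios were 3.685 and 4.25. Over all neutrophil markers 1 RC cell held 605 of 2132 UMIs, and the ratio was 2.46 (2.29–2.64) with it and 1.78 (1.65–1.92) without it. The part of neutrophil RNA in these ratios was not tested.

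**Figure D3:**
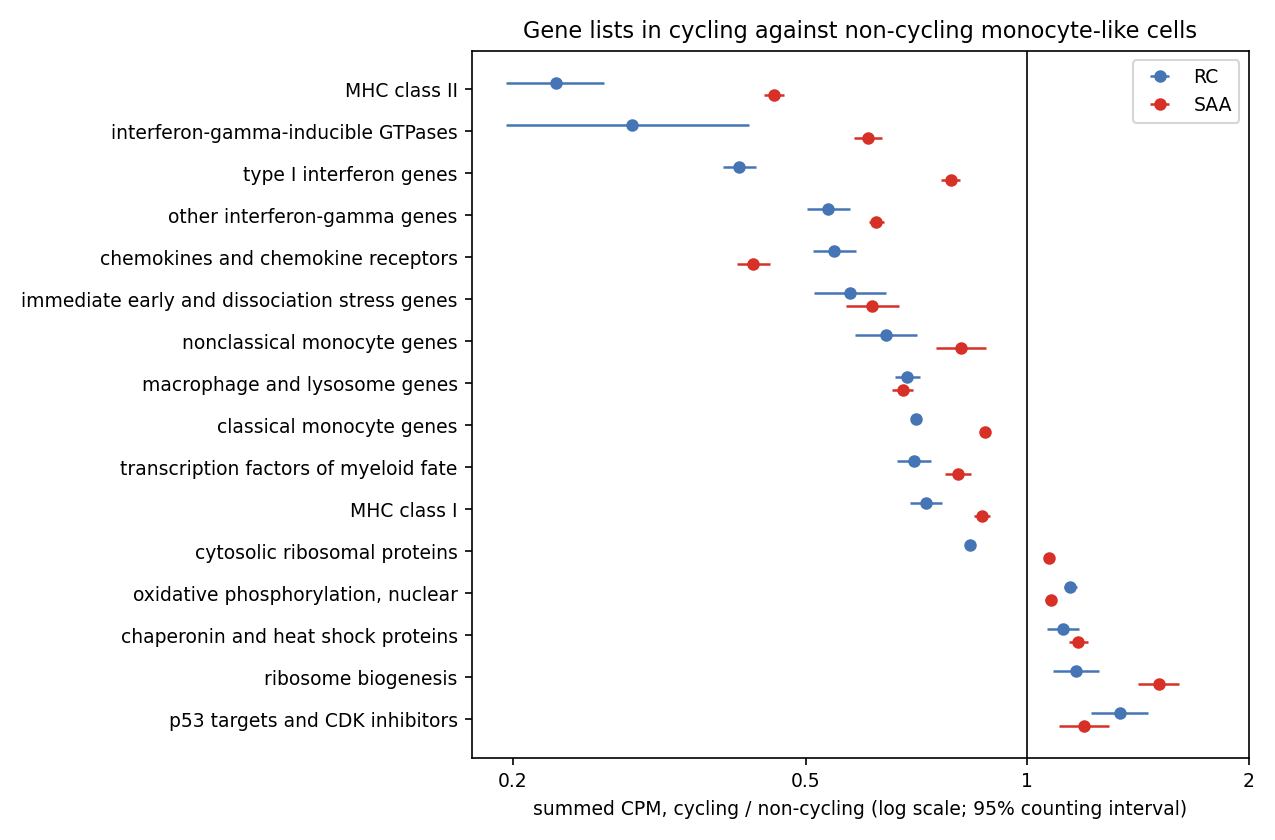
Summed CPM of selected gene lists in cycling over non-cycling monocyte-like cells (x axis, log scale) in RC (blue) and SAA (red), with 95% counting intervals. The S phase and G2 and M phase lists are not drawn. MHC class II genes lie at 0.229 in RC and 0.453 in SAA.

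Genes of mature monocytes were lower in the cycling cells of RC. The 38 classical monocyte genes summed to a ratio of 0.705 (0.694–0.717) in RC, with 12 of 35 tested genes past 2-fold lower and 1 higher. Beside them, 7.56% of all genes tested in RC were lower and 9.45% higher. In SAA the sum stood at 0.875 (0.863–0.887), with 2 of 35 lower and 1 higher, beside 3.93% and 8.90% of all genes tested. The SAA count of lower genes thus lay near the share over all genes. *Lyz2*, encoding lysozyme, stood at 10380 and 19450 CPM in RC (0.534, 0.518–0.55) and 8087 and 10970 in SAA (0.737, 0.715–0.76). *Ly6c2*, whose product the sort selected, was above 1 at 1.29 (1.205–1.39) and 1.305 (1.25–1.37). Of the rule's own genes *Csf1r* stood at 0.414 (0.306–0.554) and 0.478 (0.377–0.607) and *Ccr2* at 0.562 (0.508–0.621) and 0.849 (0.7735–0.932).

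Among the lowest genes, *Cd300c2*, encoding an immunoglobulin-like receptor, had 1 UMI in cycling and 67 in non-cycling cells of RC (0.0216, 0.00054–0.125) and 17 and 46 in SAA (0.173, 0.093–0.308). The C-type lectin receptor genes *Clec4a3* and *Clec4a1* stood at 0.196 and 0.146 in RC and at 0.236 and 0.292 in SAA. The signal-regulatory protein genes *Sirpb1c* and *Sirpb1b* stood at 0.105 and 0.207 and at 0.255 and 0.187. These genes were ranked by the library with the smaller difference, so that each is low in both by selection.

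Other genes among the lowest, and genes of macrophages, followed. *Marcks*, encoding a membrane-bound regulator of actin, stood at 0.213 (0.1365–0.32) and 0.231 (0.179–0.295), and *Pla2g7*, encoding platelet-activating factor acetylhydrolase, at 0.0558 (0.0149–0.147) and 0.293 (0.246–0.349). *Wfdc17* had ratios of 0.183 and 0.339 and *Gngt2*, of the nonclassical monocyte list, of 0.1015 and 0.304. *Maf*, a transcription factor gene of macrophages, had 1 UMI against 42 in RC (0.0345, 0.000854–0.203) and 56 against 131 in SAA (0.20, 0.144–0.276). The 36 macrophage and lysosome genes summed to 0.687 (0.661–0.714) and 0.677 (0.656–0.699), with 5 of 19 and 11 of 24 tested genes past 2-fold lower and none higher. Over all genes tested 7.56% and 3.93% were past 2-fold lower. *Cx3cr1*, the fractalkine receptor of patrolling monocytes, had 30 UMIs against 223 in RC (0.195, 0.129–0.286) and 4 against 0 in SAA.

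Interferon and antigen presentation genes were lower in cycling cells too. The 46 type I interferon genes summed to 3370.4 CPM in cycling and 8300.1 in non-cycling cells of RC (0.406, 0.386–0.428), with 10 of 14 tested genes past 2-fold lower, and to 8479.5 and 10774.5 CPM in SAA (0.787, 0.764–0.811), with 8 of 35. The 11 MHC class II genes summed to 0.229 (0.196–0.266) in RC and 0.453 (0.438–0.467) in SAA, with 4 of 5 and 4 of 8 tested genes past 2-fold lower. For both lists the share over all genes tested was 7.56% lower in RC and 3.93% in SAA. In RC 1 cell held 63 of the 200 MHC class II UMIs of cycling cells, and without it the ratio was 0.158 (0.131–0.188). The same cell held 10 of the 55 dendritic cell marker UMIs of the RC cycling cells, the most of any. The median log2 ratio of the tested genes was -1.40 (type I) and -2.54 (MHC class II) in RC and -0.53 and -1.12 in SAA, beside -0.02 and 0.05 over all genes tested. MHC class I genes stood nearer to 1, at 0.73 (0.694–0.767) and 0.868 (0.848–0.889), and the other interferon-γ genes at 0.536 (0.501–0.574) and 0.624 (0.61–0.638). Chemokines and their receptors summed to 0.547 (0.511–0.585) and 0.424 (0.403–0.447). Immediate early genes, which also respond to dissociation of the tissue, summed to 0.575 (0.512–0.644) and 0.616 (0.566–0.669).

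*Slfn5*, an interferon-induced gene of the Schlafen family, was scarce in the cycling cells of RC. It had 4 UMIs in 4 of 89 cycling cells and 236 UMIs in 107 of 251 non-cycling cells (7.24 and 295 CPM, 0.0246, 0.00664–0.06375), although the cycling cells were the deeper ones. After thinning it was found in 0 of 88 and 78 of 208 cells. The share of cycling cells with a UMI was 4.49%, close to the 5.82% of cycling granulocyte-like cells of RC, so it cannot be told from background. In SAA *Slfn5* stood at 100.3 CPM in cycling and 313.5 in non-cycling cells (0.32, 0.2555–0.40). Along K it stood at 330.2 CPM in RC cells with K of 0, 132 at 1 to 4, 17.8 at 10 to 29 and 2.68 at 30 or more, and in SAA at 354, 242, 101 and 72.9 CPM.

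The 36 ribosome biogenesis genes summed to 1.16 (1.08–1.25) in RC and 1.51 (1.42–1.61) in SAA, with 1 of 11 and 5 of 22 tested genes past 2-fold higher and none lower. Over all genes tested 9.45% and 8.9% were higher, so the count in RC lay near that share. The 61 nuclear genes of oxidative phosphorylation summed to 1.14 (1.12–1.17) and 1.08 (1.06–1.09). The 79 cytosolic ribosomal protein genes lay below 1 in RC (0.835, 0.829–0.842) and above it in SAA (1.07, 1.06–1.08), and none of them passed 2-fold in either library.

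Set beside RC, the cycling cells of SAA held more RNA of interferon-γ target genes. By 2-fold or more, 374 of 4833 genes were higher in SAA (7.74%) and 264 lower (5.46%). TMM factors shift the log2 ratios of this comparison by 0.135, and with them the counts were 473 and 171, so the split between higher and lower depends on the scaling. In the non-cycling cells of the same libraries 308 of 3947 genes were higher (7.80%) and 368 lower (9.32%). Summed over the list, the 23 interferon-γ-inducible GTPases stood at 54.1 (38.8–77.7) times RC, MHC class II genes at 15.3 (13.3–17.7), other interferon-γ genes at 6.21 (5.85–6.59), MHC class I genes at 3.43 (3.28–3.58) and type I interferon genes at 2.52 (2.4–2.64). In non-cycling cells the same sums were 25.8 (22.2–30.2), 7.74 (7.29–8.22), 5.34 (5.13–5.55), 2.88 (2.78–2.98) and 1.3 (1.25–1.34). Past 2-fold higher in cycling cells were 14 of 14, 7 of 8, 25 of 29, 22 of 22 and 26 of 29 tested genes, and none was lower. Their median log2 ratios were 4.64, 4.08, 3.38, 1.93 and 2.32, beside -0.06 over all genes tested. A gene that reached 50 UMIs through SAA alone had to differ, so these counts describe the genes and add no support.

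The largest ratios were those of genes near 0 in RC. *Ly6a*, encoding the stem cell antigen Sca-1, had 1 UMI in the 89 cycling cells of RC and 1845 in 122 of the 146 of SAA (1.81 and 1361 CPM), a ratio of 752 (135–29720). *Gbp2*, encoding a guanylate-binding protein of defence against intracellular pathogens, had 1 and 853 UMIs (348, 62.2–13750). A *Gbp2* UMI was found in 72.9% of thinned cycling cells of SAA (95.9% before thinning) and in 34.2% of thinned cycling granulocyte-like cells.

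Other targets were at 0 UMIs in the cycling cells of RC. *Iigp1*, an immunity-related GTPase gene, had 0 and 876 UMIs and was at least 119-fold higher in SAA, and *Gbp4*, *Gbp2b* and *Igtp*, also at 0 in RC, were at least 42.1-fold, 33.8-fold and 31.4-fold higher. *Serpina3g*, encoding a protease inhibitor, was at least 45.1-fold higher, and *Socs1*, the feedback inhibitor of JAK signalling, had 1 and 309 UMIs (126, 22.4–4991). The transcription factor gene *Irf1* was present in RC and higher in SAA, at 23.5 and 226.5 CPM (9.63, 5.55–18.3). *Pim1*, encoding a kinase induced by cytokine receptors, stood at 43.4 and 320.2 CPM (7.37, 4.89–11.6).

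MHC class II RNA was widespread in the cycling cells of SAA. The list summed to 362 CPM in RC and 5547 in SAA, a ratio of 15.3, or 22.2 (18.7–26.5) without the RC cell named above. *H2-Ab1* had 10 UMIs in 4 cells of RC, 7 of them in 1 cell, and 1027 in 124 of 146 cells of SAA (41.9, 22.7–87.6, or 138.5 without that cell). *H2-Eb1* had 3 and 669 UMIs (90.9, 31–442), the invariant chain gene *Cd74* 65 and 3620 (22.7, 17.8–29.5, or 47.2 without 1 RC cell), and the transactivator gene *Ciita* 2 and 77 (15.7, 4.2–132). After thinning *H2-Ab1* was found in 69.4% of cycling and 91.6% of non-cycling monocyte-like cells of SAA and in 4.2% of cycling granulocyte-like cells. MHC class I genes were present in both libraries, with *B2m* at 914 and 3126 CPM (3.42, 3.12–3.76) and *H2-K1* at 462 and 1826 (3.96, 3.48–4.52).

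Secreted products differed as well. *Cxcl9*, the chemokine that attracts activated T cells, had 0 UMIs in RC and 430 in 60 of 146 SAA cells (317 CPM, at least 58.4-fold higher), 86 of them in 1 cell. In non-cycling SAA cells it stood at 2117 CPM, so the cycling to non-cycling ratio was 0.15 (0.134–0.167). *Saa3*, encoding an acute-phase protein, had 0 and 299 UMIs in cycling cells of RC and SAA (at least 40.6-fold higher) and also lay below the non-cycling cells of SAA (0.143, 0.125–0.163). Both were lower at each step of K in SAA, *Cxcl9* at 2770 CPM (K of 0), 977 (1 to 4), 603 (5 to 9), 396 (10 to 29) and 211.5 (30 or more), and *Saa3* from 1940 to 118.

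Chaperones and some progenitor genes were higher in SAA too. Of the chaperones 14 of 25 tested were past 2-fold higher, with a sum of 2.18 (2.1–2.28), beside 2.08 (2.0–2.17) in non-cycling cells. Over all genes tested in cycling cells 7.74% were higher and 5.46% lower, which holds for each count given here. The endoplasmic reticulum chaperone genes *Calr* and *Hspa5* stood at 5.545 (4.24–7.37) and 4.94 (3.91–6.33). Of 9 tested progenitor genes 3 were higher and 3 lower. The sum of 3.26 (3.09–3.45) came mostly from *Plac8* (6668 of 11584 SAA UMIs, 4.405, 4.06–4.79) and *Ctsc* (3445 UMIs, 7.31, 6.32–8.5), the latter encoding the protease that activates granule proteases. *Plac8* is also in the lists of other interferon-γ genes and of classical monocyte genes, so this sum is not particular to progenitor genes. *Ms4a3*, a marker of granulocyte-monocyte progenitors, had 3 and 206 UMIs (28, 9.445–137). The classical monocyte list was near level in sum (1.06, 1.05–1.08), with 9 of 35 genes higher and 4 lower, and within it *Vcan*, encoding the matrix proteoglycan versican, stood at 32.6 and 383 CPM (11.75, 7.36–19.99).

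**Figure D4:**
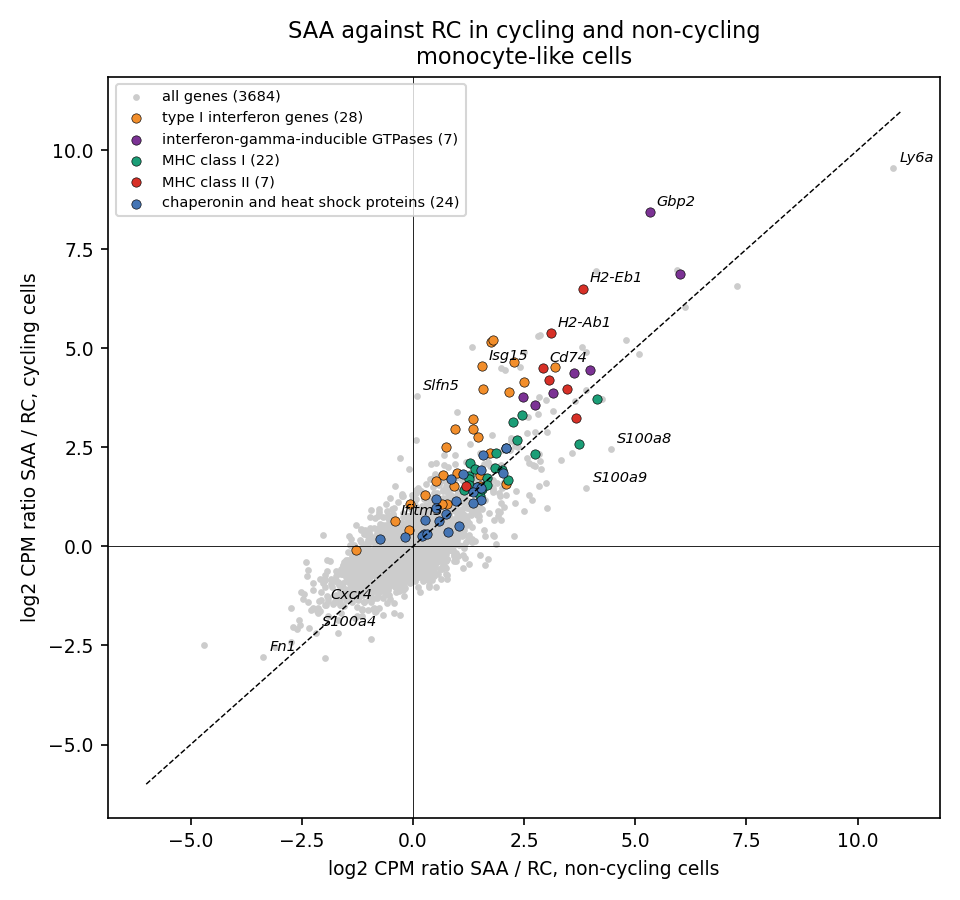
Log2 CPM ratio of SAA over RC in cycling (y axis) against non-cycling (x axis) monocyte-like cells for 3684 genes, with 5 gene lists coloured and a dashed line at equal ratios. Genes without UMIs in all 4 classes, or under 50 UMIs over both libraries in cycling or in non-cycling cells, are not drawn. *Iigp1*, *Gbp4* and *Cxcl9*, at 0 in cycling RC cells, are thus absent. The axes share no cells but come from the same 2 libraries, and *Slfn5* lies above the line, at a ratio of 13.9 in cycling and 1.06 in non-cycling cells. The *Slfn5* level in cycling RC cells cannot be told from background.

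Lower in SAA were *Fn1*, *S100a4*, *Ccl9* and *Arsb* among others. *Fn1* stood at 2197 CPM in RC and 318 in SAA cycling cells (0.145, 0.129–0.162), with a UMI in 92.05% and 41% of thinned cells. *S100a4*, encoding a calcium-binding protein, stood at 1135 and 252 CPM (0.222, 0.194–0.253), the chemokine gene *Ccl9* at 192 and 36.2 (0.188, 0.1315–0.267) and the lysosomal sulfatase gene *Arsb* at 208 and 36.9 (0.177, 0.1245–0.249). These 4 genes were lower in non-cycling SAA cells too, at 0.0972, 0.22, 0.148 and 0.0385. *Fabp5* (fatty acid binding), *Pglyrp1* (peptidoglycan recognition), *Cd24a*, *Klrb1f*, *Pid1*, *Ptpn12* and *Pdcd4* lay between 0.141 and 0.241. *Cx3cr1* had 30 UMIs in RC and 4 in SAA (0.05435, 0.0139–0.154).

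Cell cycle genes took a smaller part of the RNA in the cycling cells of SAA, a comparison that the rule itself affects. K is a sum of raw UMIs, so a deeper cell passes with a smaller part of cycle-gene RNA. The SAA cycling cells were deeper (median 8639.5 against 5682 UMIs), and 35 of them had K of 5 to 9 against 3 of RC. How much of the difference this gives was not tested. Of the G2 and M phase list 33 of 149 tested genes were past 2-fold lower and none higher, and the sum stood at 0.617 (0.608–0.626). *Hmgb2*, encoding a chromatin protein, stood at 5803 and 3118 CPM (0.537, 0.513–0.563). The S phase list summed to 0.833 (0.798–0.869), with 3 of 56 genes lower and 1 higher. Over all genes tested 5.46% were lower and 7.74% higher, so the S phase count of lower genes lay near that share. In cycling granulocyte-like cells, chosen by the same K, the G2 and M phase sum was 0.925 (0.917–0.934). Their median depths lay nearer to each other (7329 UMIs in RC and 7489 in SAA), so they do not show the effect of depth. In thinned cells the UMIs of 20 mitotic genes exceeded those of the S phase list in 45 of 88 (51.1%, 40.2–61.9%) cycling cells of RC and 50 of 144 (34.7%, 27–43.1%) of SAA, with overlapping intervals. With K of at least 10 the shares were 43 of 85 (50.6%, 39.5–61.6%) and 41 of 110 (37.3%, 28.2–47%).

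The SAA cells with K of 5 to 9, of which RC had 3, formed one end of the range. Their K came mostly from *Stmn1* (30.3%) and *Pclaf* (29%) and to 7.24% from *Top2a*, which gave 27.6% at K of 30 or more. Beside SAA cells with K of at least 10, 127 of 214 tested cell cycle genes were past 2-fold lower and none higher, and outside the cycle and the rule 57 of 3545 were higher and 189 lower. *Saa3* stood at 4.35 (3.44–5.5) times the level at the higher K, *Maf* at 3.4 (1.91–5.97), *Myd88*, an adaptor gene of Toll-like receptors, at 2.63 (1.93–3.56), *Slfn5* at 2.49 (1.71–3.6) and *Cxcl9* at 2.33 (1.89–2.86), whereas *H2-Ab1* (1.19, 1.01–1.39) and *Prtn3* (0.92, 0.745–1.13) differed less. *Cxcr4* stood at 34.7 against 167 CPM (0.208, 0.0883–0.4175) and *Cdkn2d* at 39 against 150.3 (0.26, 0.117–0.505), near the 20.5 and 42.5 CPM of non-cycling SAA cells. These genes were chosen after their values were seen, and the cut on K makes this a range and not a type.

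For several genes the SAA to RC ratio was larger in cycling than in non-cycling cells, a difference that was not tested for want of replicates. The ratio of the 2 ratios, with a 95% interval for counting error, was 13 (4.735–35.8) for *Slfn5*, whose SAA to RC ratio was 13.9 in cycling and 1.06 in non-cycling cells. It was 7.965 (2.86–22.2) for *Isg15*, encoding a ubiquitin-like modifier, with 4 and 231 UMIs in cycling cells of RC and SAA. It was 5.27 (2.85–9.75) for *Slfn1*, 4.05 (2.33–7.02) for the DNA sensor gene *Ifi204*, 3.67 (2.37–5.68) for *Bst2*, encoding tetherin, 4.87 (2.565–9.25) for *H2-Ab1* and 2.97 (2.285–3.85) for *Cd74*. Each of these 7 genes had its lowest level of the 4 classes in the cycling cells of RC. The mitochondrial ribosome gene *Mrps7* stood among them at 5.78 (2.26–14.8). Among non-cycling RC cells, only a minority held high levels of the MHC class II list, to which *H2-Ab1* and *Cd74* belong. Over the type I interferon list the SAA to RC ratio was 2.52 in cycling and 1.3 in non-cycling monocyte-like cells, and 11.3 (10.5–12) in cycling granulocyte-like cells.

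**Figure D5:**
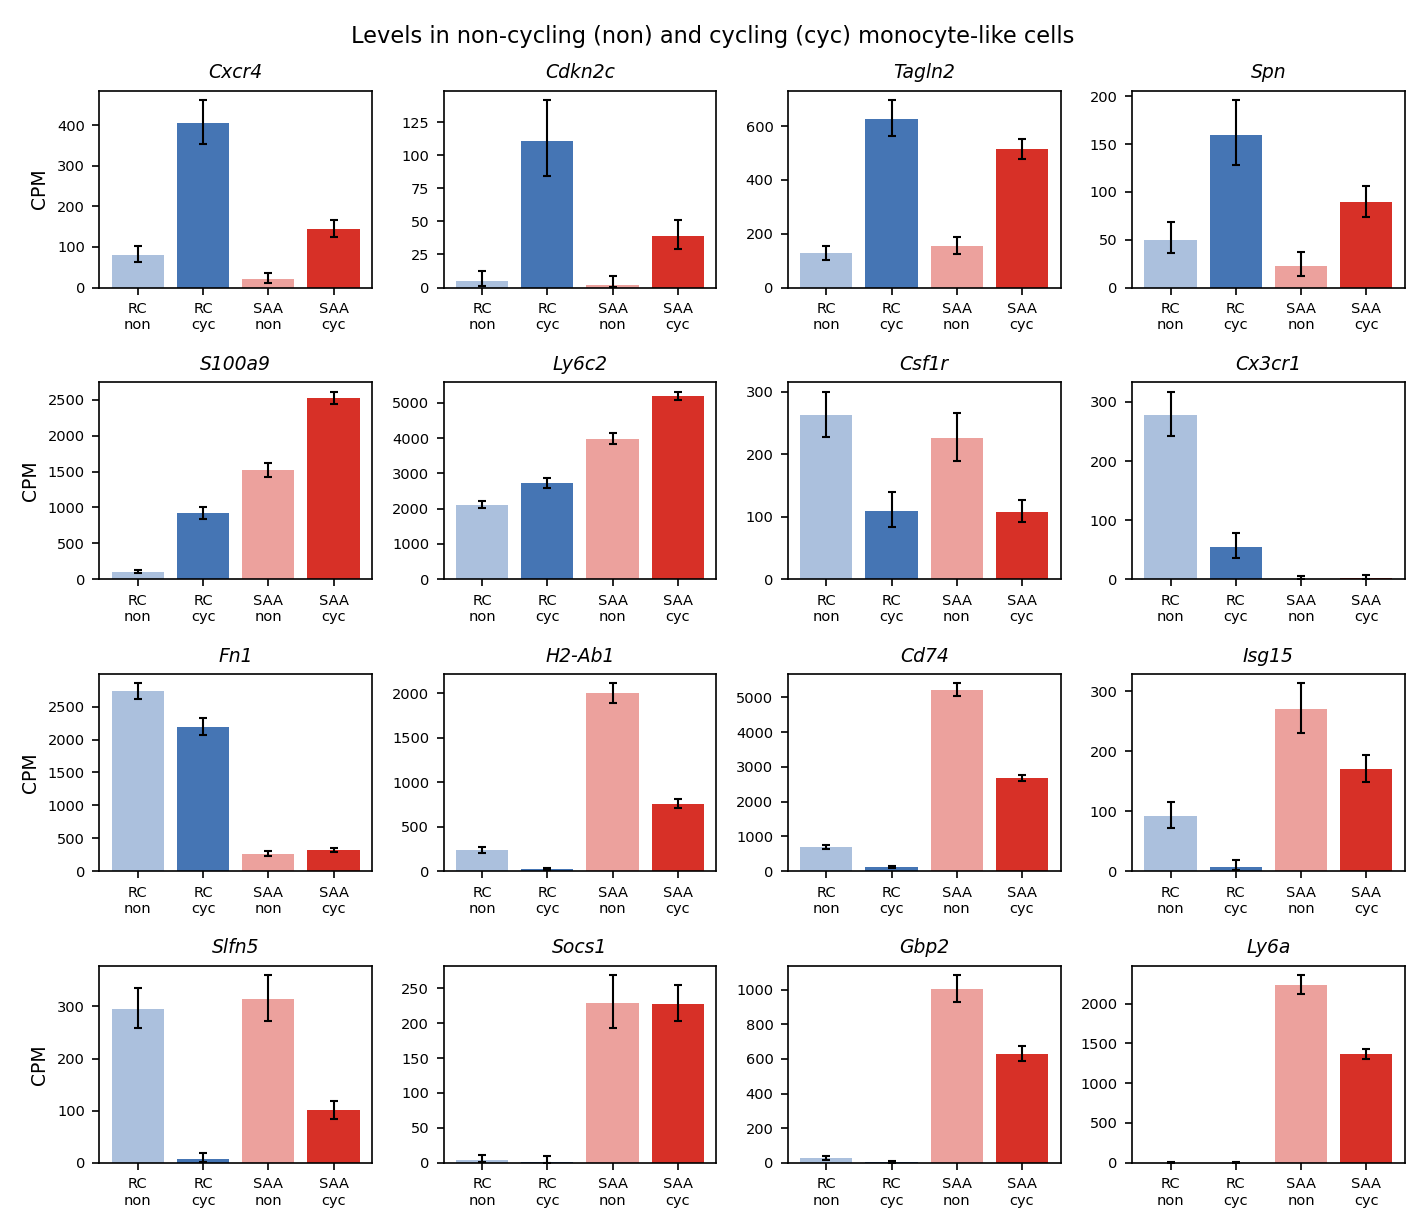
CPM (y axis) of 16 genes in non-cycling and cycling monocyte-like cells of RC (blue) and SAA (red), with exact Poisson 95% intervals. *Cxcr4* stands at 405.5 and 145 CPM in cycling cells of RC and SAA against 81.2 and 20.5 in non-cycling cells, and *Slfn5* at 7.24 and 100.3 against 295 and 313.5.

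The SAA to RC ratio was smaller in cycling cells for *S100a9* and *S100a8*, with ratios of ratios of 0.185 (0.145–0.236) and 0.249 (0.217–0.285), and non-cycling cells of RC held 82 and 280 UMIs of them. Without the RC cycling cell that held most, the SAA to RC ratio in cycling cells was 5.8 in place of 2.76 for *S100a9* and 7.65 in place of 5.45 for *S100a8*. *Marcksl1* (0.243, 0.103–0.576), *Ap1s1* (0.286, 0.152–0.536), *Cep83* (0.313, 0.177–0.554), *Cfp*, encoding the complement factor properdin (0.382, 0.265–0.552), *Ptms* (0.414, 0.304–0.563) and *Txn1*, encoding thioredoxin (0.477, 0.413–0.55), also had the smaller ratio in cycling cells.

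The study followed some genes of clearance and inflammation in its monocytes. It reported higher *Cd47* and *Sirpa* RNA in SAA in each of its monocyte populations. By flow cytometry it also found more SIRPα on monocytes and macrophages and more CD47 on bone marrow cells. Its populations are not the classes used here, and the values below are RNA only. In cycling cells *Cd47*, the don't-eat-me signal, stood at 315 CPM in RC and 430.2 in SAA (1.37, 1.15–1.63), and in non-cycling cells at 377 and 353 (0.936, 0.784–1.12). *Sirpa*, encoding its inhibitory receptor on phagocytes, stood at 255 and 244 CPM in cycling cells (0.957, 0.783–1.17). The Fcγ receptor gene *Fcgr1* (12.8, 5.79–35.4), *Fgl2* (29.9, 14.4–74.7) and *Ifi47* (20.8, 10.45–48.5) were higher in SAA, as were *Icam1* (5.81, 2.15–22.05), *Tlr4* (2.7, 1.28–6.58) and *Aif1* (2.64, 1.89–3.78). The interval of *Ccr1* included 1 (1.23, 0.844–1.84). *Tnf*, with 3 and 8 UMIs (1.09, 0.261–6.36), and *Cmklr1*, the receptor gene of resolvin E1, with 0 and 3, were too sparse to compare.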

How the data were processed

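Sorted bone marrow cells were sequenced in 2 libraries, 1 per condition with 3 mice pooled in each. The authors processed the reads with Cell Ranger 6.0.1 on mm10 and deposited UMI counts per gene (31053 genes) and barcode, which were used unchanged. The files held 0 columns of other series. The authors' cell annotation was not used here. UMIs were summed per class and divided by the class total (CPM). With 1 library per condition there was no test: ratios have exact conditional binomial 95% intervals, shares Clopper-Pearson intervals, and a gene at 0 was bounded with a floor of 3 UMIs per class. A call was a 2-fold difference among genes with at least 50 UMIs. Cells were thinned to 2400 UMIs where shares of cells were compared, leaving out 1 RC and 2 SAA cycling and 43 and 9 non-cycling cells. Scrublet, as run in scanpy 1.11.5, marked 1 RC and 11 SAA cells, under 2% of each library, and these were kept in the main values. The members and the gene lists were chosen with earlier results of these data known.

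Named genes were the 12 highest and 12 lowest by the interval bound nearest 1 in cycling against non-cycling cells (the smaller of both libraries) and in SAA against RC, the 8 highest and 8 lowest by ratio of ratios, the up to 4 most abundant genes of each list, the genes of M, G and K, and genes the study names, some of which are not reported here. Cell cycle, ribosomal protein, mitochondrial and unnamed genes were left out of the ranking. Alternatives were other filters on cells, K of 10, thinning, TMM factors of edgeR 4.0.16, scaling on genes outside the cell cycle, other UMI minimums and leaving out called doublets. Scripts ran in Python 3.11.15 and R 4.3.3 and were tested on simulated data. Promoter windows came from RefSeq (GRCm38.p6).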

Additional observations from a re-analysis of the deposited data

Results flagged for a closer look

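For 6 of the 142 named genes compared, the SAA to RC ratio lay on opposite sides of 1 in cycling and non-cycling monocyte-like cells, with counting intervals that both left out 1. With 1 library per condition the difference was not tested. *Ptma*, encoding prothymosin α, stood at 0.715 (0.685–0.747) in cycling and 1.37 (1.26–1.5) in non-cycling cells, *Ptms*, encoding parathymosin, at 0.616 (0.497–0.765) and 1.49 (1.18–1.88), and *Cep83*, a centrosome gene, at 0.688 (0.497–0.961) and 2.2 (1.34–3.67). The other way round, *Ifitm3*, an interferon-induced antiviral gene, stood at 1.55 (1.45–1.66) and 0.754 (0.713–0.798), *Ly86*, a gene of the rule, at 1.44 (1.16–1.81) and 0.783 (0.656–0.932), and *Npc2*, encoding a lysosomal cholesterol-binding protein, at 1.17 (1.04–1.32) and 0.861 (0.78–0.949).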

How the results depend on the processing

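With 1 library per condition, no replicate could be left out, and no paired analysis was possible because each condition has 1 library. Among the named genes and the summed lists that were recomputed, which are not all lists, none past 2-fold turned its direction under the alternatives. The cycling share of monocyte-like cells was 49.1% in RC and 60% in SAA with at least 1500 genes and at most 10% mitochondrial RNA, and in SAA 40.5% with K of at least 10 and 37.5% after thinning. Counts of genes past 2-fold depended on depth and on the UMI minimum, by construction, since fewer UMIs or a higher minimum leave fewer genes to test. Higher in cycling cells of RC were 173 genes after thinning, 183 with a minimum of 100 UMIs and 2144 with a minimum of 1, and lower were 170, 129 and 2535, and 153 with the stricter filter on cells. In SAA 98, 219 and 2500 were higher and 69, 89 and 1880 lower. Between SAA and RC 100, 208 and 2413 were higher and 56, 111 and 1994 lower, and 171 were lower with TMM factors. The sum of ribosomal proteins between SAA and RC lay between 0.929 and 1.05 over the alternatives and that of chaperones between cycling and non-cycling SAA cells between 0.994 and 1.22, so their side of 1 is not settled. Members without G of 10 or more, and single genes without the cell that held most of their UMIs, were tried after the data were seen.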
